A study of Homo sapiens with 2 samples.

Results

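Aminoacyl-tRNA synthetases attach each amino acid to its tRNA and so load the building blocks of translation. Their transcripts were measured in Ca9-22, a cell line derived from a gingival squamous carcinoma, in 2 groups: cells stably transduced with a RUNX2 vector, and cells stably transduced with an empty vector. Both groups went through blasticidin selection, and the promoter that drives RUNX2 in the vector is not given in the sources used here. RUNX2 is a runt-domain transcription factor best known for osteoblast differentiation, and the comparison asked which transcripts differ when its vector is present. Only 1 array was run for each group, which leaves no replicates and allows no test between the groups. Precision is limited by that number.

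The 35 synthetase genes considered comprised 19 whose main product works in the cytosol and 16 whose product works in mitochondria, with symbols ending in 2. Members were chosen by gene name, with earlier results of these data already known. Only probe sets whose annotation gave 1 of these genes and no other were used. This left 32 genes, 17 cytosolic and 15 mitochondrial, of 19775 genes with a probe set of their own on the array. MARS1, QARS1 and TARS2 were represented by 5 probe sets that were each annotated with a further gene as well, so no value is given for them. All 32 genes had a probe set above the floor, which was the median of each array (51.8 scaled intensity units on the array labelled RUNX2 and 55.3 on the empty vector array). Of their 67 probe sets, 57 were above the floor on at least 1 array and 56 on both, and the other 10 were not measured.

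Humans keep separate sets of synthetases for the cytosol and for mitochondria, all encoded in the nucleus, and most mitochondrial members serve translation of the few respiratory chain proteins made inside that organelle. GARS1 and KARS1 make both forms from 1 gene, and EPRS1 joins the glutamate and the proline enzyme in a single chain. The cytosolic enzymes for several amino acids sit in a multisynthetase complex, and many cytosolic synthetase genes are textbook targets of ATF4, the transcription factor that acts when amino acids run short or the endoplasmic reticulum is stressed. ATF4 acts through a DNA sequence known as the C/EBP-ATF response element.

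The targeted gene did not settle the labels. Of the 6 RUNX2 probe sets, a pair was higher on the array labelled RUNX2, at 854 there and 204 on the empty vector array, and at 353 there and 102 on the empty vector array. The brightest went the other way, with 433 on the array labelled RUNX2 and 1746 on the empty vector array, and the remaining 3 were below the floor on both. Each direction given here therefore rests on the labels. All 6 squamous epithelial markers that had a probe set of their own exceeded the floor on both arrays, and 0 of 3 leukocyte markers did. The squamous markers went both ways: KRT14 was 2.69-fold higher on the array labelled RUNX2 and KRT5 was at 12580 there and 8842 on the empty vector array, while EPCAM was 1.85-fold lower and DSG3 had a log2 ratio of -0.08. Of the fibroblast markers, COL1A1 was above the floor on both arrays (1553 on the array labelled RUNX2 and 1937 on the empty vector array) and THY1 only through another of its probe sets, whereas COL1A2, COL3A1 and PDGFRB were below it. The endothelial markers PECAM1 and VWF were just above the floor on both arrays. This held for 1 of 5 PECAM1 probe sets and 1 of 2 VWF probe sets. PECAM1 was at 55.5 on the array labelled RUNX2 and 69.4 on the empty vector array. The log2 ratios were -0.32 for PECAM1 and -0.44 for VWF, and CDH5 was below the floor. The part of these markers in the synthetase values was not tested. In a bulk extract, fewer cells with a transcript and less of it per cell cannot be told apart.

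The promoters of 30 of the 35 genes were found in a RefSeq promoter table of assembly GRCh38.p14, which holds 250 bases before and 50 bases after each annotated start. Promoters of LARS1, VARS1, VARS2, AARS2 and YARS1 are not shown. The core of the C/EBP-ATF element, written TGATGNAA and searched on both strands, occurred in the windows of 7 of 16 cytosolic genes (43.8%) and of 1 of 14 mitochondrial genes (7.14%), against 4.46% of all 27305 genes in the table. Each match is printed because the same core recurs across these genes. The lines run 5′ to 3′ along the gene's own strand, with the 8 matching bases in capitals and 11 bases on either side. In AARS1, CARS1, GARS1, IARS1, MARS1 and TARS1 the match lies on the opposite strand and is seen as its reverse complement.
AARS1, chr16:70289675-70289704, minus strand: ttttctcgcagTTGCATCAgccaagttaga
CARS1, chr11:3057407-3057436, minus strand: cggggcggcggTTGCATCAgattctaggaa
GARS1, chr7:30594834-30594863, plus strand: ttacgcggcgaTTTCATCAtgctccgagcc
IARS1, chr9:92293692-92293721, minus strand: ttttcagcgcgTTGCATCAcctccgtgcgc
MARS1, chr12:57488053-57488082, plus strand: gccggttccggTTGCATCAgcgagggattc
NARS1, chr18:57621804-57621833, minus strand: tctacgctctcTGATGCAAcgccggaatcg
TARS1, chr5:33440956-33440985, plus strand: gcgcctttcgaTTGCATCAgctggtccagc
YARS2, chr12:32756076-32756105, minus strand: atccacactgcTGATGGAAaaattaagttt

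The matches in CARS1, GARS1, IARS1, MARS1, NARS1 and TARS1 lay between 33 bases before and 22 bases after the annotated start, and those in AARS1 and YARS2 began 187 and 197 bases before it. A match is a description of the sequence and not a measured binding site. The RUNX motif TGTGGT, searched after the expression values were known, occurred in windows of 6 of the 30 genes (20%), namely AARS1, CARS1, WARS1, NARS2, RARS2 and YARS2, against 15.6% of all genes in the table.

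Cytosolic synthetase transcripts were mostly somewhat higher in the array labelled RUNX2, and mitochondrial ones were spread to both sides. The median log2 ratio of RUNX2 over empty vector was 0.28 over the 17 cytosolic genes, with a range of -0.19 to 0.63, and -0.04 over the 15 mitochondrial genes, with a range of -0.43 to 0.73. The median over all 12729 measured genes was -0.06. A log2 ratio above 0 was found in 13 of 17 cytosolic and 7 of 15 mitochondrial genes, against 42.7% of all genes. The difference of the medians, cytosolic minus mitochondrial, was 0.31 on the log2 scale. For scale, ratios of different probe sets of 1 gene differed with an SD of 0.29 over 6165 genes, and of 0.19 over the 17 members with at least 2 measured probe sets; this is a spread within the pair of arrays and no replicate error.

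No member differed by 2-fold, a size reached upwards by 1.42% and downwards by 1.47% of all genes. At 1.5-fold, FARSA, CARS2 and MARS2, 3 of the 32, were higher and 0 lower, against 5.77% of all genes higher and 6.88% lower. LARS2, TARS1 and WARS1 lay just under that threshold. The count was 6 on the deposited scale without a factor, 7 with equal medians and 1, CARS2, after adding the floor as an offset. In those settings the median of all genes was -0.01, 0.03 and -0.07, and the share of all genes at 1.5-fold was not computed. With probe sets averaged, the members that passed were MARS2 and WARS1. By more than the SD of 0.29 between probe sets of a gene, a limit chosen after the values were seen, 7 of 17 cytosolic genes were higher and 0 lower, and 3 of 15 mitochondrial genes were higher and 1 lower. Of all genes, 16.8% were higher and 23.4% lower by that limit. With equal medians the cytosolic count was 11, and the median of all genes was then 0.03. The share of all genes past the limit was not computed for that setting, so 16.8% is no match for that count. Level differed between the compartments too. Of 3 equal classes of all genes by level, the brightest held 14 cytosolic and 6 mitochondrial members, and its median log2 ratio over all genes was -0.01, while the dimmest held 0 cytosolic and 3 mitochondrial members at a median of -0.14.

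**Figure D1:**
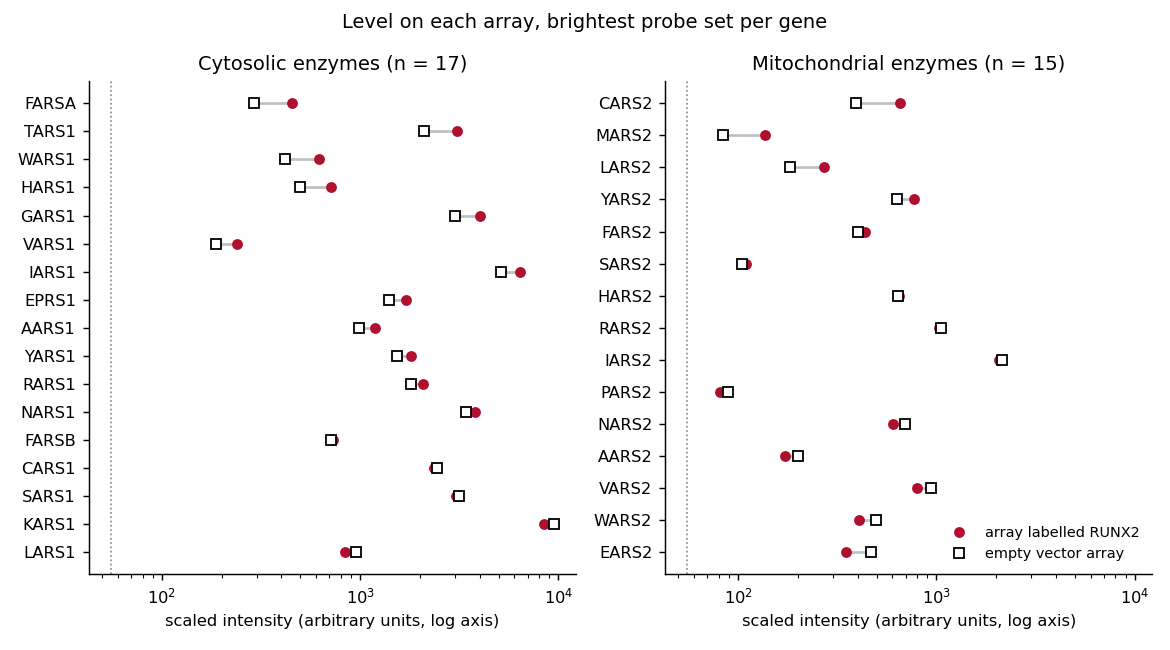
Scaled intensity of the brightest probe set of each synthetase gene (log axis, arbitrary units) on the array labelled RUNX2 (filled circles) and on the empty vector array (open squares), with genes ordered by ratio and the empty vector floor of 55.3 dotted. All 32 genes lay above the floor on both arrays, and the gap between the 2 symbols is widest for CARS2, MARS2 and FARSA.

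Among the cytosolic enzymes, FARSA, the catalytic subunit for phenylalanine, had the widest ratio. Its level was 452 on the array labelled RUNX2 and 292 on the empty vector array, 1.55-fold higher, and a further probe set gave a log2 ratio of 0.43, at 386 on the array labelled RUNX2 and 287 on the empty vector array. FARSB encodes the other subunit of the same enzyme. Its brightest probe set read 727 on the array labelled RUNX2 and 709 on the empty vector array, a log2 ratio of 0.04, and another gave 0.34. The brightest probe sets of the subunits thus differed more than their remaining ones, at 0.43 and 0.34.

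TARS1, the threonine enzyme, had a level of 3087 on the array labelled RUNX2 and 2094 on the empty vector array, 1.47-fold higher. HARS1, which charges histidine, read 711 on the array labelled RUNX2 and 499 on the empty vector array, 1.42-fold higher. GARS1, the glycine enzyme of both compartments, read 4036 on the array labelled RUNX2 and 2991 on the empty vector array, 1.35-fold higher. These 3 genes each rested on 1 measured probe set. VARS1, the valine enzyme, was 1.28-fold higher at 240 on the array labelled RUNX2 and 188 on the empty vector array, and its other probe set gave a log2 ratio of 0.24.

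WARS1 charges tryptophan and is, among synthetases, the one known for induction by interferon gamma. Its level was 617 on the array labelled RUNX2 and 419 on the empty vector array, 1.47-fold higher, and its other probe set was 1.60-fold higher, at 341 on the array labelled RUNX2 and 214 on the empty vector array. A downstream annotated start of WARS1 has a window with an interferon-stimulated response element core (GAAANNGAA) and a gamma-activated site (TTCNNNGAA), searched on both strands after the values were known and found in 9.86% and 9.38% of all genes of the table. Of the 30 synthetase genes, 4 held the first motif and 5 the second, and WARS1 alone held both. The 250 bases before that start are shown because they carry both motifs, in capitals, the gamma-activated site first.
WARS1, chr14:100375348-100375597, minus strand: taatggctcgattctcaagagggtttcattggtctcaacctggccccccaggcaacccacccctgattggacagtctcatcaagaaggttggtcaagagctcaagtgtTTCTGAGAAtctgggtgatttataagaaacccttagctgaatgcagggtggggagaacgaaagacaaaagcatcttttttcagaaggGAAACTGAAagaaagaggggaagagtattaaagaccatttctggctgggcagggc

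The 7 measured of 9 listed interferon-gamma responsive genes had a median log2 ratio of 0.00 and did not go together. The GTPase GBP1 read 1151 on the array labelled RUNX2 and 496 on the empty vector array, 2.32-fold higher. Other GBP1 probe sets had log2 ratios from 0.86 to 1.92. The peptide transporter TAP1 had a log2 ratio of 0.41. GBP2 was 1.84-fold lower, at 396 on the array labelled RUNX2 and 730 on the empty vector array. Its other probe set was less far down, at a log2 ratio of -0.31. The transcription factor IRF1 had -0.16, with 0.13 in its other probe set. IDO1, an enzyme that degrades tryptophan, read 67.5 on each array.

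The cytosolic genes near the middle of the group were IARS1 (isoleucine), EPRS1, AARS1 (alanine), YARS1 (tyrosine), RARS1 (arginine) and NARS1 (asparagine), with log2 ratios between 0.14 and 0.32. IARS1 read 6413 on the array labelled RUNX2 and 5139 on the empty vector array. EPRS1 read 1711 on the array labelled RUNX2 and 1399 on the empty vector array, and its log2 ratios were 0.29, 0.09 and 0.41 over 3 probe sets. For each of these 6 genes every measured probe set was above 0.

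CARS1 (cysteine) and SARS1 (serine) lay close to the median of all genes, at -0.05 each. SARS1 had levels of 3041 on the array labelled RUNX2 and 3158 on the empty vector array. The other measured probe sets gave -0.17 for SARS1, and 0.06 and 0.01 for CARS1. LARS1, the leucine enzyme and a reported leucine sensor for mTORC1, was the lowest of the cytosolic group. Its brightest probe set read 834 on the array labelled RUNX2 and 948 on the empty vector array, a log2 ratio of -0.19, and the next gave -0.41, at 763 on the array labelled RUNX2 and 1013 on the empty vector array. A further LARS1 probe set gave -0.43, and the dimmest was below the floor on the array labelled RUNX2, with a bound of -0.35, so all 4 were lower. KARS1, the lysine enzyme of both compartments, read 8436 on the array labelled RUNX2 and 9501 on the empty vector array, 1.13-fold lower, with -0.14 in its other probe set.

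**Figure D2:**
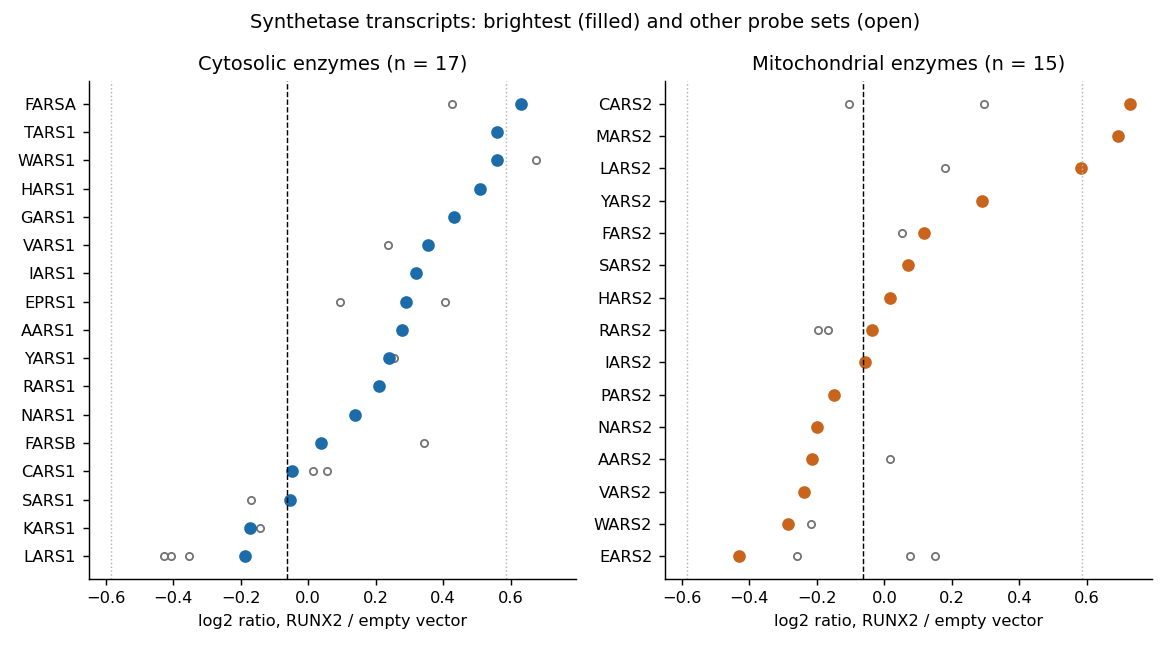
Log2 ratio of RUNX2 over empty vector for each cytosolic (blue, n = 17 genes) and mitochondrial (orange, n = 15 genes) synthetase gene, with the brightest probe set filled, other measured probe sets open, the median of all genes (-0.06) dashed and 1.5-fold dotted. Most blue points lie right of the dashed line, and the open points of CARS2 and EARS2 fall on both sides of 0.

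In the mitochondrial group, CARS2, the cysteine enzyme, had the widest ratio. Its brightest probe set read 655 on the array labelled RUNX2 and 395 on the empty vector array, 1.66-fold higher. Another CARS2 probe set gave 0.30 on the log2 scale, at 70.4 on the array labelled RUNX2 and 57.4 on the empty vector array, and the remaining one, at 69.2 on the array labelled RUNX2 and 74.5 on the empty vector array, gave -0.11. The mean over the 3 was 0.31. MARS2 charges the mitochondrial methionine tRNA, which also starts translation there. It read 136 on the array labelled RUNX2 and 84.4 on the empty vector array in its only probe set, 1.62-fold higher. LARS2, the leucine enzyme, read 272 on the array labelled RUNX2 and 182 on the empty vector array, a log2 ratio of 0.58 just under the 1.5-fold threshold, with 0.18 in the other probe set. YARS2, the tyrosine enzyme, read 774 on the array labelled RUNX2 and 634 on the empty vector array, 1.22-fold higher.

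EARS2, the glutamate enzyme, was the lowest mitochondrial member. It read 349 on the array labelled RUNX2 and 470 on the empty vector array, 1.35-fold lower, but its 4 probe sets split, with log2 ratios of -0.43, -0.26, 0.08 and 0.15 and a mean of -0.12. Mitochondria have no synthetase for the glutamine tRNA of their own, and EARS2 also charges that tRNA with glutamate, which the amidotransferase of GATB, GATC and QRSL1 then converts. In that step, GATC had a log2 ratio of -0.46 in its brightest probe set, at 381 on the array labelled RUNX2 and 523 on the empty vector array, and of 0.39 in the other, while GATB had 0.10 and QRSL1 had 0.10, with other QRSL1 probe sets from -0.08 to 0.68.

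WARS2, the tryptophan enzyme, read 405 on the array labelled RUNX2 and 495 on the empty vector array, 1.22-fold lower, with -0.22 in its other probe set. VARS2, for valine, read 795 on the array labelled RUNX2 and 939 on the empty vector array, 1.18-fold lower. AARS2 (alanine), NARS2 (asparagine) and PARS2 (proline) had log2 ratios of -0.22, -0.20 and -0.15, AARS2 with 0.02 in another probe set. RARS2 (arginine) was at -0.04 and, in its other measured probe sets, at -0.17 and -0.20. IARS2 (isoleucine), at 2067 on the array labelled RUNX2 and 2152 on the empty vector array, HARS2 (histidine), SARS2 (serine) and FARS2 (phenylalanine) lay between -0.06 and 0.12.

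Where an amino acid has a gene for each compartment, the pair can be set side by side. Of 11 such pairs with both genes measured, the cytosolic gene had the higher ratio in 7 and the mitochondrial gene in 4, with a median difference of 0.34 on the log2 scale. In 6 pairs the difference exceeded 0.42, the SD expected for a difference of 2 probe sets from the spread within genes, a size also exceeded by 42.3% of all pairs of measured genes. Nothing particular to the synthetase pairs is therefore read from that count. The tryptophan, valine, histidine and alanine pairs were then higher on the cytosolic side, with differences of 0.85, 0.59, 0.49 and 0.49. The cysteine and leucine pairs were higher on the mitochondrial side, at -0.78 and -0.77 as cytosolic minus mitochondrial. These differences rest on the brightest probe set of each gene. Other measured probe sets gave 0.30 and -0.11 for CARS2, 0.18 for LARS2 and 0.02 for AARS2, which would narrow their pairs. The other LARS1 probe sets were lower than its brightest, which would widen the leucine pair. In the tyrosine pair both genes were higher in the array labelled RUNX2, at 0.24 for YARS1 and 0.29 for YARS2.

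**Figure D3:**
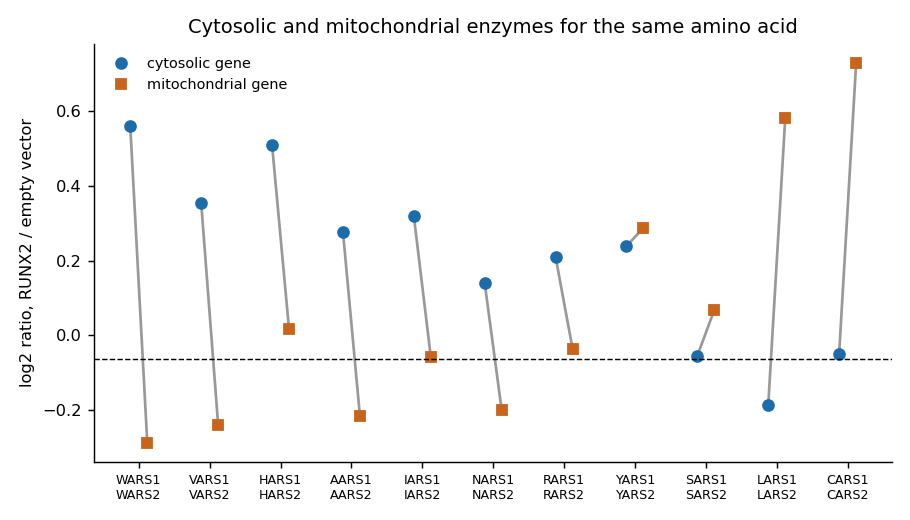
Log2 ratio of RUNX2 over empty vector for the cytosolic (circles) and mitochondrial (squares) gene of 11 amino acids, ordered by the difference, with the median of all genes (-0.06) dashed. The tryptophan pair at the left differs by 0.85 and the cysteine pair at the right by -0.78, cytosolic minus mitochondrial.

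HARS1 and HARS2 stand back to back on chromosome 5, with 84 bases between their annotated starts, so the histidine pair shares its promoter region. This stretch is printed on the plus strand, along HARS2, because transcription of the 2 genes leaves it in opposite directions.
HARS1-HARS2, chr5:140691371-140691454, plus strand: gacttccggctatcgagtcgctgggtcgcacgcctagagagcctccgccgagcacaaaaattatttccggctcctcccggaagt
HARS1 was 1.42-fold higher in the array labelled RUNX2, whereas HARS2 read 651 there and 643 on the empty vector array, a log2 ratio of 0.02.

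The cytosolic group can also be split by known roles. The 11 measured of 12 listed ATF4-responsive synthetases had a median log2 ratio of 0.28, with 8 above 0. The other 6 cytosolic genes also had 0.28, with 5 above 0. Of all measured genes, 42.7% were above 0. The 6 measured cytosolic genes with a C/EBP-ATF element in a promoter window had a median of 0.30. The 8 that had a window but no element had 0.25. LARS1, VARS1 and YARS1, at -0.19, 0.355 and 0.24, had no promoter in the table and are in neither group. Enzymes of the multisynthetase complex, 5 of 8 of which had a measured probe set of their own, had a median of 0.21, with EPRS1, IARS1 and RARS1 above 0 and KARS1 and LARS1 below. AIMP1, a scaffold of that complex, had -0.03, with other probe sets from -0.29 to -0.004. Synthetases fall into 2 structural classes, and the cytosolic medians were 0.24 for class I (7 genes) and 0.28 for class II (9 genes), while the mitochondrial medians were -0.04 (9 genes) and -0.07 (6 genes). EPRS1, which holds both classes, was left out of that split.

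Among 21 measured ATF4 pathway genes other than synthetases, the median log2 ratio was 0.07, with 15 above 0, 4 higher by 1.5-fold or more and 0 lower by as much, against 42.7%, 5.77% and 6.88% of all genes. ATF4 itself read 6692 on the array labelled RUNX2 and 5770 on the empty vector array, 1.16-fold higher. CHAC1, which degrades glutathione, was 1.66-fold higher, the secreted glycoprotein STC2 1.61-fold (with a log2 ratio of 0.06 in its other probe set), the pseudokinase TRIB3 1.54-fold and the cystine transporter subunit SLC7A11 1.52-fold. ASNS, asparagine synthetase and a standard ATF4 target, read 1910 on the array labelled RUNX2 and 2016 on the empty vector array, a log2 ratio of -0.08. DDIT3, which encodes CHOP, had 0.06.

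Of 11 measured genes for tRNA proofreading, processing and export, 9 were above 0, against 42.7% of all genes, with a median of 0.20. At 1.5-fold or more, 1 was higher, against 5.77%. These counts rest on the brightest probe set. XPOT and POP4, counted above 0 at 0.17 and 0.20, had -0.25 and -0.31 in their other probe sets. POP1, a protein of the RNase P that trims tRNA precursors, read 380 on the array labelled RUNX2 and 178 on the empty vector array, 2.13-fold higher, and RPP30, another RNase P protein, was 1.48-fold higher. TRNT1, which adds the terminal CCA to tRNAs, was 1.47-fold higher, with 0.79 in its other probe set. DTD1, which removes D-amino acids from tRNAs, had -0.28.

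RNA polymerase III transcribes tRNA genes. The list for this polymerase, which also held BRF1, BRF2 and MAF1, had a median of 0.16 over 12 measured genes. Of these, 8 were above 0, against 42.7% of all genes. POLR3A and POLR3E, counted above 0 at 0.03 and 0.18, had other probe sets below 0, at -0.06 for POLR3A and from -0.16 to -0.03 for POLR3E. At 1.5-fold, 2 were higher and 1 lower, against 5.77% and 6.88%. The alternative subunits POLR3G and POLR3GL went opposite ways. POLR3G read 212 on the array labelled RUNX2 and 129 on the empty vector array, 1.64-fold higher, and POLR3GL read 322 on the array labelled RUNX2 and 660 on the empty vector array, 2.05-fold lower. The core subunit POLR3B was 1.67-fold higher, and MAF1, a repressor of this polymerase, had -0.23. Of the elongation factors that carry charged tRNAs to the ribosome, EEF1A1 had -0.23, with other probe sets from -0.72 to 0.21. Mitochondrial TUFM had 0.05, with 0.30 in its other probe set. EEF1A2 was below the floor on the array labelled RUNX2, at least 1.46-fold lower. MTFMT, which formylates the methionine that MARS2 attaches, was 1.29-fold higher.

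**Figure D4:**
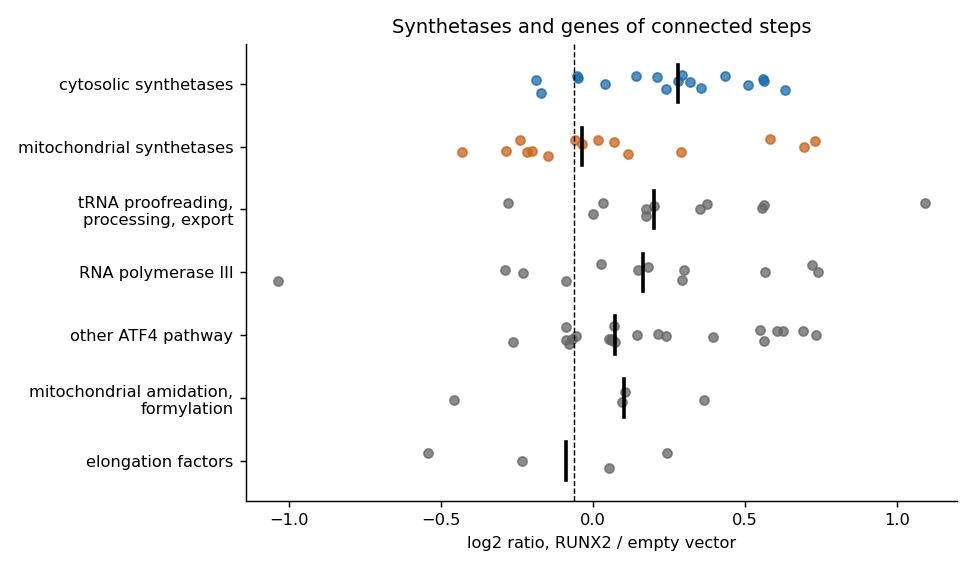
Log2 ratio of RUNX2 over empty vector for synthetase genes and for genes of connected steps, 1 point per measured gene, with bars at list medians and the median of all genes (-0.06) dashed. The cytosolic synthetases have a median of 0.28 and the mitochondrial ones of -0.04, and POP1 and POLR3GL are the outermost points at 1.09 and -1.03.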

How the data were processed

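Labelled cRNA of each group was measured on 1 Affymetrix human array, per the labels' protocols. The values are intensities, deposited by the authors as 1 linear number for each of 54675 probe sets, and MAS5, with no version, is named in the submitters' processing notes. The scaling behind them is not given in the sources used here. Identical values on both arrays occurred in 1448 probe sets, 1 of them a RARS2 probe set below the floor. After 62 control probe sets had been removed, a factor of 0.966 on the array labelled RUNX2 made the 2% trimmed means equal. Each array's median served as a floor to which lower values were raised, and such ratios are bounds. Gene symbols came from the platform's annotation (41091 probe sets with 1 symbol, 1801 with several, 11721 with none), updated by Entrez ID in a RefSeq table of GRCh38.p14, where 41037 matched. Each gene was represented by its measured probe set of highest mean log2 level. Groups came from sample titles.

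Members and lists were chosen with earlier results of these data known. By rule, full values are given for members past 1.5-fold, the 3 highest and lowest of each compartment, the brightest, and GARS1, KARS1, EPRS1 and WARS1, and up to 4 genes of a list were named for the widest ratio. Other members and genes were named, some with full values, after their values were seen. The probe set SD as a limit, the RUNX and interferon motifs and the HARS1-HARS2 region were also added then. The 10 alternatives were run in Python 3.11.15 with pandas 2.3.3 and statsmodels 0.14.6, and the ratio code was tested on simulated arrays.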

Additional observations from a re-analysis of the deposited data

How the results depend on the processing

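With 1 array per group, nothing here measures replicate error. The 10 alternatives were the deposited scale, quantile normalization, equal medians, loess against level (span 0.4), a floor at either the 25th or the 75th percentile, no floor, adding the floor value as an offset, averaging a gene's probe sets, and using only probe sets without the suffix _x_at or _s_at. The cytosolic median exceeded the mitochondrial one under each of them. On the deposited scale and with equal medians this was fixed in advance, because a single factor for an array shifts both medians alike. The lower floor and no floor could not change it either, because each member's brightest probe set lay above the main floor. The difference stayed 0.31 in these settings, so they add no support. The difference ran from 0.29 to 0.32, the cytosolic median from 0.25 to 0.37 and the mitochondrial median from -0.06 to 0.06. The count of members at least 1.5-fold higher was 3 and became 6 on the deposited scale, 7 under equal medians and 1 after adding the offset. The deposited scale and equal medians shift the log2 ratio of every member by the same amount. With the offset, MARS2 went from 0.69 to 0.43 and FARSA from 0.63 to 0.54. The share of all genes at 1.5-fold was computed for the main setting only. Counts at 1.5-fold lower and at 2-fold stayed 0. The cytosolic count higher by more than the probe set SD, 7, ran from 4 (of 11 genes left without the suffixed probe sets) to 11 (equal medians). The cytosolic count lower by that limit ran from 0 to 1, with LARS1 at -0.34 when probe sets were averaged. The mitochondrial counts ran from 2 to 4 higher and from 0 to 2 lower. Shares of all genes by that limit were not computed for the alternatives. Under equal medians, 15 of 17 cytosolic and 9 of 15 mitochondrial genes were above 0, against 53.5% of all genes. Of the members, 27 kept their sign under all alternatives that gave them a value, and CARS1, SARS1, AARS2, IARS2 and RARS2 did not. No paired analysis was possible because each group held 1 array.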

Other observations

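Besides the histidine pair, 5 synthetase genes had a measured neighbour on the opposite strand whose promoter window overlapped their own. The log2 ratios were -0.43 for EARS2 and -0.04 for UBFD1, 0.12 for FARS2 and 0.02 for LYRM4, -0.17 for KARS1 and -0.38 for TERF2IP, and -0.04 for RARS2 and -0.10 for ORC3. SARS2 had 0.07 and its neighbour MRPS12, a protein of the mitochondrial ribosome, had 0.44. The neighbours were looked up after the values of the synthetase genes were known, and no test was made.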
